A study of Mus musculus with 6 samples.

Results

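The genes described here make cholesterol, move it into and through the cell, and sense its level. They are 30 named genes of the cholesterol pathway, found by symbol among the 21960 genes of the count table: 19 enzymes of synthesis, 4 genes of sterol sensing, 5 of uptake, transport and esterification, and 2 nuclear receptors for oxysterols. The list does not cover every gene of the pathway. All 30 had a row, and 29 had enough reads to be tested. Soat1, which esterifies cholesterol for storage, had between 0 and 3 reads in every library and was not tested.

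RNA-Seq had been run on TuBo cells, a mammary carcinoma line from a BALB/c mouse that carries the activated rat HER2 oncogene (NeuT) under the mouse mammary tumor virus promoter. In 3 libraries, called p140Cap, the cells overexpressed the scaffold protein p140Cap (gene Srcin1) from its cDNA in the retroviral vector pBabe-puro, and in the other 3 libraries, called mock, they were controls that the labels give as wt. Both groups shared the NeuT background, and p140Cap cells had been selected with puromycin and cloned from single cells, the clones then being pooled. The labels do not say what vector or selection the mock cells had received. In one place the labels call the samples mice and in another cell lines, and no source used here says that replicates were separate cultures, so the p-values measure only the spread between these libraries.

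Animal cells build cholesterol from acetyl-CoA through mevalonate, isoprenoids, squalene and lanosterol. When sterols in the endoplasmic reticulum are low, Scap escorts the transcription factor SREBP2 (gene Srebf2) to the Golgi, where it is cleaved to a form that turns on the genes of synthesis and uptake. When sterols are high, INSIG proteins hold Scap back, and oxysterols switch on the liver X receptors (Nr1h2 and Nr1h3), whose targets include Mylip, a ubiquitin ligase that sends lipoprotein receptors to degradation.

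Synthesis genes were lower in p140Cap cells, at nearly every step. Of the 19 enzymes, 18 fell, none rose, and Dhcr7, which carries out a last reduction of the sterol ring, did not pass the test. The median log2 fold change of the 19 (p140Cap minus mock) was -0.55, and the largest falls were those of Hsd17b7, Idi1 and Cyp51. Of the 10 other tested genes, Insig2, Mylip, Npc2, Npc1 and Nr1h2 rose, Insig1, Stard4 and Nr1h3 fell, and Scap and Srebf2 did not pass. Over all 29 tested genes, 5 rose, 21 fell and 3 did not pass (edgeR's quasi-likelihood test, adjusted p under 0.05). The background was high in this comparison, since 35.2% of all 11800 tested genes were called higher and 35.9% lower. A log2 fall of at least 0.5 that passed the test was seen in 11 of the 19 enzymes and in 12 of the 29 genes, beside 15.5% of all tested genes. For 26 of the 29 genes the 3 mock libraries and the 3 p140Cap libraries did not overlap, as for 73.4% of all tested genes. In bulk RNA, fewer cells of a type and less RNA per cell cannot be told apart.

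Total reads were 33058719 to 75506562 in mock and 13770385 to 15364850 in p140Cap libraries, so each mock library was the deeper. Srcin1 was at 14.98 ± 1.96 CPM (reads scaled to library size; mean ± SD, n = 3) in mock and 2343 ± 153 in p140Cap libraries. Of 9 mammary epithelial markers, 1 (Krt19) was below 1 CPM, and their summed level was 5956 to 6355 CPM in mock and 7028 to 7294 in p140Cap libraries. For 6 fibroblast markers, 4 of them below 1 CPM and 3 without a read, the summed levels were 9.97 to 10.5 CPM in mock and 11.3 to 14.1 in p140Cap libraries. For 6 leukocyte markers, 5 of them below 1 CPM and 4 without a read, they were 2.04 to 2.34 and 3.23 to 4.09. All 4 endothelial markers (summed 0.21 to 0.48 and 0.48 to 0.73 CPM) and all 4 adipocyte markers (0.09 to 0.18 and 0.27 to 0.59 CPM) were below 1 CPM. The part of any of these in the results was not tested.

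**Figure D1:**
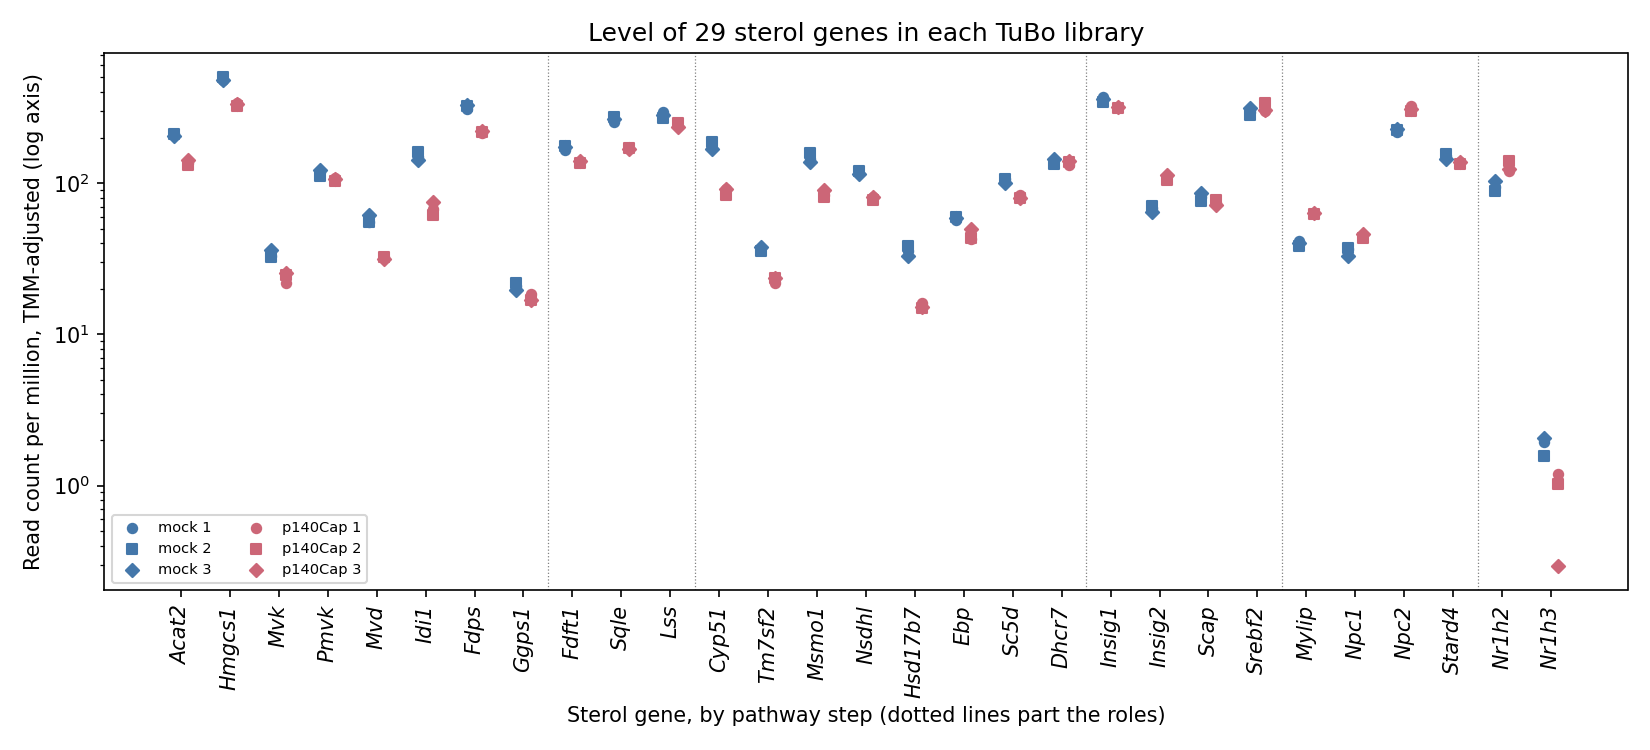
Level of each of the 29 tested genes in every library, in CPM on a log axis, with mock and p140Cap libraries as separate points, ordered by pathway step. Mock points lie above p140Cap points for 18 of the 19 enzymes without overlap, while Insig2, Mylip, Npc1, Npc2 and Nr1h2 lie the other way.

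The promoters of the 2 genes that fell most and the 2 that rose most are shown first, so that the sequences in front of the genes can be read beside their values. That of Hmgcs1 was added after its motif had been seen. Each runs from 250 bases before to 50 bases after an annotated transcript start, 5′ to 3′ on the gene's strand (RefSeq, GRCm38.p6). Hsd17b7 is on the minus strand at chr1:169969156-169969455. Idi1 is on the plus strand at chr13:8885356-8885655. Insig2 is on the minus strand at chr1:121332540-121332839, which is the upstream one of its 3 listed starts. Mylip is on the plus strand at chr13:45389492-45389791, and Hmgcs1 on the plus strand at chr13:119690101-119690400. The genes themselves span chr1:169949535-169969242 for Hsd17b7 (ENSMUSG00000026675), chr13:8885606-8892396 for Idi1 (ENSMUSG00000058258), chr1:121304353-121332662 for Insig2 (ENSMUSG00000003721) and chr13:45389742-45411940 for Mylip (ENSMUSG00000038175). Capitals mark CCAAT, the box bound by NF-Y, or its reverse complement ATTGG. In Hmgcs1 they also mark TCACCCCAC, a match to the core of a sterol regulatory element.
Hsd17b7: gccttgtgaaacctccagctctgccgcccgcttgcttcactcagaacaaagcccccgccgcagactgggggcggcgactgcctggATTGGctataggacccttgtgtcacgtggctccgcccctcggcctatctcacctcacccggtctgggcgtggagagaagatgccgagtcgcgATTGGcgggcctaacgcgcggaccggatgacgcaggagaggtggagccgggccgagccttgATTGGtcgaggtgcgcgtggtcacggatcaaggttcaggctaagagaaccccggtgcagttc
Idi1: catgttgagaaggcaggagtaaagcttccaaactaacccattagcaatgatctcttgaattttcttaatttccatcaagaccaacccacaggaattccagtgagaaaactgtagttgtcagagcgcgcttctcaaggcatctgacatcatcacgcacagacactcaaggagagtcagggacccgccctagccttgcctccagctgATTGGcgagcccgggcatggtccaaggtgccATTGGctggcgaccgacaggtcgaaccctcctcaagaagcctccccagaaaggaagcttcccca
Insig2: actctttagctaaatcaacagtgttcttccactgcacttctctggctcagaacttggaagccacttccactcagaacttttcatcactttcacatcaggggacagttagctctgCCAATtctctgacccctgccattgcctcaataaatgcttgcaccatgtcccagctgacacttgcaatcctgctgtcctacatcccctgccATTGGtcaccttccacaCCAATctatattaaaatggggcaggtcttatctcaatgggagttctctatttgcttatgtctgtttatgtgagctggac
Mylip: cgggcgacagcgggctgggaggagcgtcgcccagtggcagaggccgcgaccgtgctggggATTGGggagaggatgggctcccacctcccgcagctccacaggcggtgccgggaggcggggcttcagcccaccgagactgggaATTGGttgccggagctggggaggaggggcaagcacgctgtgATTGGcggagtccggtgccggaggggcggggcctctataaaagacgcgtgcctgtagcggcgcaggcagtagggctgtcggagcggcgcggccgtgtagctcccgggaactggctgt
Hmgcs1: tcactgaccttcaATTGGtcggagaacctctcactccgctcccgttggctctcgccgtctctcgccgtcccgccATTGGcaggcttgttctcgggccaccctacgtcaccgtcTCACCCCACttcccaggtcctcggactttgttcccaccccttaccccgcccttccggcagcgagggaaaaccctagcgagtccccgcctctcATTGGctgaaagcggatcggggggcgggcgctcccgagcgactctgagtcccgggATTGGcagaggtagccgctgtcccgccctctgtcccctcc

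Each of the 5 windows holds CCAAT more than once, those of the genes that rose included. For Insig2 this holds for the printed window only, since the windows of its other listed starts lack CCAAT. Which start the cells use was not tested. Promoters were matched for 25 of the 30 genes, all but Fdft1, Fdps, Sqle, Npc1 and Stard4. CCAAT was present on either strand in 21 of the 25 and in 15 of the 16 matched enzymes (Acat2 lacked it), beside 41.1% of 27025 genes with a promoter and 43.3% of those tested for expression. The GC box GGGCGG was present in 21 of the 25 and in 14 of the 16 enzymes, beside 38.2% of all genes with a promoter and 70.0% of tested genes. TCACNCCAC, searched on both strands, was found in Hmgcs1 alone, with its first base 137 bases before the start (position -137), beside 1.44% of all genes with a promoter and 1.37% of tested genes. No match of one of these motifs overlapped a match of another. A match describes the letters in a window and does not show a bound site, and promoters with several starts offer more windows to match.

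The mevalonate segment turns acetyl-CoA into isoprenoid units, and all 8 of its enzymes fell (median log2 fold change -0.56). Acat2, which joins 2 molecules of acetyl-CoA, was at 210.0, 211.1 and 205.2 CPM in mock and 136.3, 130.8 and 142.1 in p140Cap libraries. The groups lay far apart relative to their spread, and the fall was -0.61 ± 0.05 (log2, SE; adjusted p = 6.99e-09, edgeR). Acat2 shares 1414 bases at 98.5% identity with Acat3, so reads may be divided between them, and Acat3, with 7 to 64 reads in a library, was not called (log2 fold change -0.44, adjusted p = 0.19).

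Hmgcs1 makes HMG-CoA and had the highest mock level of the 30 per length, at 92.3 CPM per kb of exon in mock and 62.8 in p140Cap libraries. The length used here merges all annotated exons of a gene, so ranks per length depend on which transcripts are annotated. Its level was 477.6, 500.0 and 480.6 CPM in mock and 339.6, 321.9 and 331.3 in p140Cap libraries. Every mock library was above every p140Cap library (-0.55 ± 0.05, adjusted p = 1.95e-08, edgeR). Hmgcs1 shares 396 bases at 99.5% identity with Baz1a elsewhere in the genome, over 9.4% of its transcript, so some reads may be divided between them. Mvk, which phosphorylates mevalonate, had 33.8 ± 1.84 CPM in mock and 23.9 ± 1.88 in p140Cap libraries (SD, n = 3), a log2 fold change of -0.50. Mvd, which decarboxylates the diphosphate, went from 57.5 ± 3.24 to 32.3 ± 0.59 CPM, -0.83 on the log2 scale. Pmvk, the kinase between them, changed least of the segment: 117.2 ± 5.06 to 106.2 ± 3.28 CPM, or -0.14 on the log2 scale (adjusted p = 0.0174, edgeR). Its call was lost in 3 of the 14 other settings tried, at adjusted p between 0.0554 and 0.0638 in edgeR.

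Idi1, which isomerizes isopentenyl diphosphate, was the steepest of the segment. Its level was 149.3, 161.4 and 142.8 CPM in mock and 67.7, 61.6 and 75.4 in p140Cap libraries. No library came near the other group, and Idi1 fell by 54.9% (log2 fold change -1.15 ± 0.07, 95% interval -1.29 to -1.01, adjusted p = 2.13e-10, edgeR). Fdps makes farnesyl diphosphate, the branch point to sterols, dolichol and prenylated proteins, and went from 321.0 ± 9.0 to 218.2 ± 2.6 CPM (log2 -0.56). Ggps1, which extends it to geranylgeranyl diphosphate outside the sterol branch, fell less, from 20.8 ± 1.07 to 17.3 ± 0.93 CPM (log2 -0.27, adjusted p = 0.00367, edgeR). Fdps has 4 processed pseudogenes with at least 95% identity over 300 bases, Idi1 has 2 and Ggps1 has 1, so reads of these genes may be shared with them.

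The 3 enzymes from farnesyl diphosphate to lanosterol fell, with Sqle in front. Sqle, the epoxidase that is a rate-limiting enzyme of the late pathway, was at 254.2, 272.4 and 264.2 CPM in mock and 171.2, 170.6 and 168.3 in p140Cap libraries. The p140Cap libraries were nearly level with each other, and the log2 fold change was -0.63 ± 0.05 (adjusted p = 4.11e-09, edgeR). Fdft1, squalene synthase, went from 171.4 ± 6.05 to 138.1 ± 1.65 CPM (log2 -0.31). Its exons overlap Ctsb on the opposite strand over 24.8% of their length, and it has 1 processed pseudogene. Lss, which closes squalene epoxide to lanosterol, went from 281.6 ± 12.4 to 241.9 ± 7.12 CPM (log2 -0.22, adjusted p = 0.000784, edgeR).

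After lanosterol, 7 of 8 enzymes fell (median log2 fold change -0.62). Cyp51, which removes the first methyl group, was at 171.7, 188.1 and 168.4 CPM in mock and 91.3, 83.3 and 91.3 in p140Cap libraries. Cyp51 fell by 49.7% (log2 fold change -0.99 ± 0.06, adjusted p = 1.75e-10, edgeR). Msmo1, a methyl oxidase that acts later, was at 144.6, 157.2 and 138.5 CPM in mock and 82.8, 80.7 and 89.5 in p140Cap libraries, a log2 fold change of -0.80. Both separated the groups without overlap. Cyp51 exons overlap Akap9 on the opposite strand over 21.1% of their length, and no source used here says whether counting used strand, so reads of such pairs may be mixed. In all, 18 of the 30 genes share exon sequence positions with another annotated gene, 2 of them (Tm7sf2 and Nr1h3) on the same strand.

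Hsd17b7 reduces the 3-keto sterol in the same demethylation, and had the most negative fitted log2 fold change of the 29 tested genes. Its level was 35.4, 38.1 and 32.9 CPM in mock and 16.0, 14.9 and 15.1 in p140Cap libraries, from 1094 to 2705 reads in mock and 206 to 243 in p140Cap libraries. The groups lay far apart, and Hsd17b7 fell by 56.8% (log2 fold change -1.21 ± 0.07, 95% interval -1.37 to -1.05, adjusted p = 4.99e-10, edgeR). Nsdhl, which carries out the decarboxylation before it, went from 116.9 ± 3.23 to 80.0 ± 1.78 CPM (log2 -0.55).

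The reductase Tm7sf2 went from 36.9 ± 1.23 to 22.9 ± 0.97 CPM (log2 -0.68, adjusted p = 4.96e-08, edgeR). It lies on chromosome 19, where the median log2 fold change of 424 tested genes was -0.34, against -0.07 to 0.07 on the other chromosomes, and 10.8% of its exon length overlaps Vps51 on the same strand. What the chromosome contributes to its fall was not tested. Without Tm7sf2, 17 of the 18 remaining enzymes fell. Ebp, the sterol isomerase, went from 58.3 ± 1.17 to 45.1 ± 3.75 CPM (log2 -0.37), and Sc5d, which adds a ring double bond, from 103.9 ± 3.85 to 81.1 ± 1.92 CPM (log2 -0.36). Dhcr7 was at 142.2, 134.3 and 144.7 CPM in mock and 131.0, 138.0 and 140.1 in p140Cap libraries. These values overlapped, and the 95% interval of its log2 fold change was -0.15 to 0.06 (adjusted p = 0.445, edgeR). A fall of the size of Sc5d's lies outside that interval. Its longest transcript also shares a repeated stretch with many other genes, so some of its reads may be theirs.

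**Figure D2:**
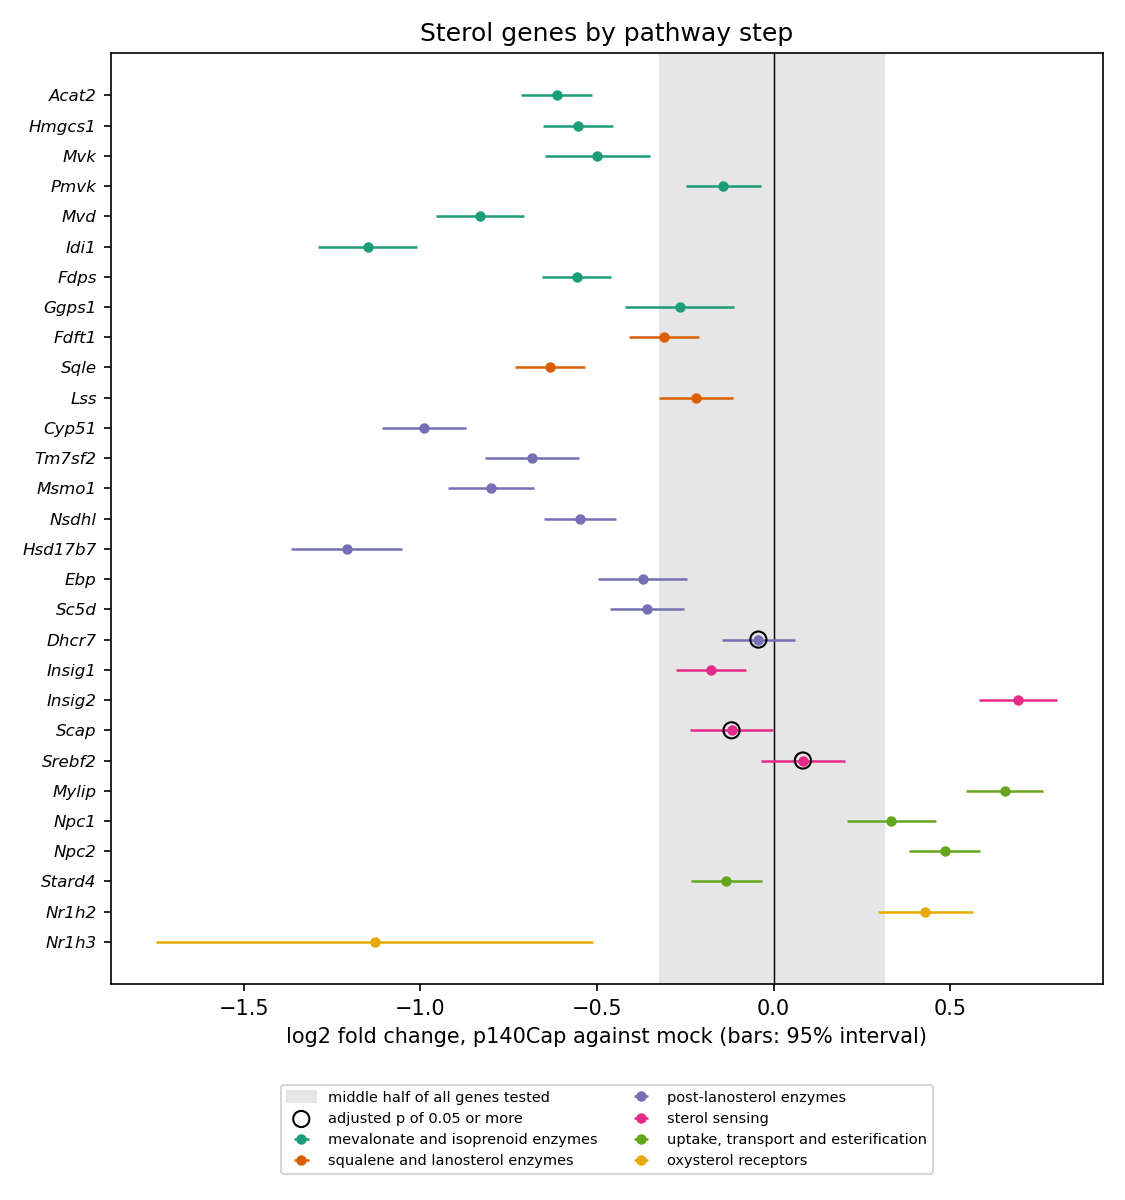
Log2 fold change (p140Cap minus mock) of each tested gene with its 95% interval, grouped by role, beside a grey band of the quartiles of all 11800 tested genes (-0.32 to 0.31). All 19 enzymes lie below 0, and the interval of Dhcr7 alone among them crosses it.

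Summed over the enzymes, libraries of a group differed little beside the gap between groups. The 19 enzymes summed to 2898, 2977 and 2908 CPM in mock and 2039, 2008 and 2065 in p140Cap libraries. The sum was 30.4% lower in p140Cap libraries, and the spread within a group was an SD of 43.0 CPM in mock and 28.5 in p140Cap libraries. Mock 2 held the highest mock value for 12 of the 19 enzymes and mock 1 for 1. The median deviation of the enzymes from their mock means, on the log2 scale, was -0.575, -0.585 and -0.541 in p140Cap 1, 2 and 3, and between -0.016 and 0.035 in the mock libraries.

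**Figure D3:**
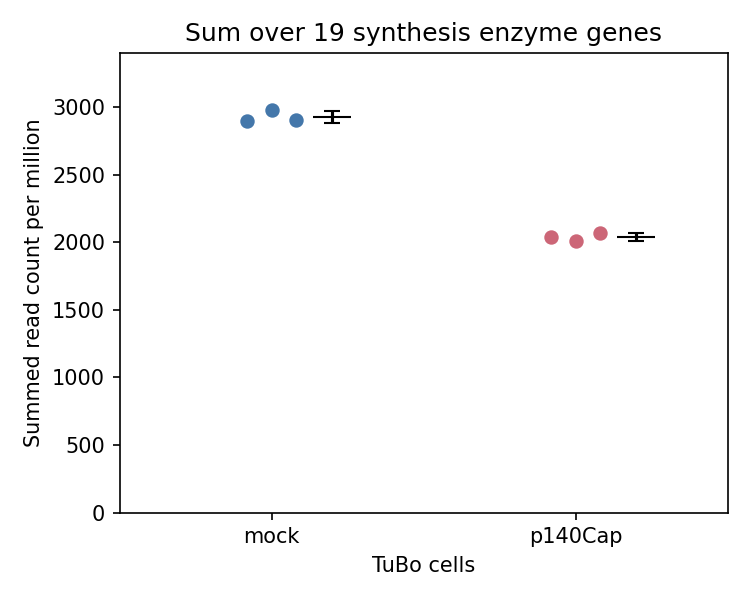
Summed CPM of the 19 synthesis enzymes in each library (points) with the group mean and SD (n = 3), on an axis from 0. Mock libraries lie between 2898 and 2977 and p140Cap libraries between 2008 and 2065.

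The sensors did not move as 1 group: 1 of 4 rose, 1 fell and 2 did not pass. Insig2 retains Scap in the endoplasmic reticulum and, unlike Insig1, is not a strong target of SREBP. It was at 68.5, 70.5 and 64.3 CPM in mock and 111.5, 104.1 and 113.3 in p140Cap libraries. All p140Cap libraries were higher, by 61.7% (log2 fold change 0.69 ± 0.05, 95% interval 0.58 to 0.80, adjusted p = 5.44e-09, edgeR). Insig1, its relative and itself a SREBP target, was at 371.6, 345.6 and 359.6 CPM in mock and 319.9, 312.0 and 320.4 in p140Cap libraries. The groups did not overlap, and the fall was small next to those of most enzymes (-0.18 ± 0.05, adjusted p = 0.00291, edgeR). Per length, Insig1 was at 73.5 CPM per kb in mock and 65.0 in p140Cap libraries, the highest p140Cap level of the 30. The log2 ratio of Insig2 to Insig1 was -2.40 ± 0.10 (SD, n = 3) in mock and -1.53 ± 0.04 in p140Cap libraries. The difference of 0.87 is given as a description. An exact permutation test over the libraries gave p = 0.1, the smallest value possible with 3 per group.

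Srebf2, which encodes the transcription factor of the pathway, was at 296.5, 281.0 and 313.0 CPM in mock and 299.0, 338.6 and 305.2 in p140Cap libraries. The groups overlapped, and the 95% interval of its log2 fold change was -0.04 to 0.20 (adjusted p = 0.201, edgeR). Scap, the escort, was at 81.1 ± 5.02 CPM in mock and 74.6 ± 3.01 in p140Cap libraries, with overlapping libraries and a 95% interval of -0.24 to -0.001 (adjusted p = 0.0662, edgeR). Scap passed in 3 of the 14 other settings tried, at adjusted p between 0.0159 and 0.0318 in edgeR. The RNA level says nothing of the cleaved protein.

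Of the genes of uptake, transport and esterification, 3 rose and 1 fell. Mylip was at 41.4, 38.5 and 40.1 CPM in mock and 63.5, 62.5 and 63.3 in p140Cap libraries. The libraries of each group were close together and the groups far apart, and Mylip was 57.5% higher (log2 fold change 0.66 ± 0.05, 95% interval 0.55 to 0.76, adjusted p = 8.68e-09, edgeR). Npc1 and Npc2 hand cholesterol out of the lysosome. Npc2, the soluble partner, was at 217.5, 224.1 and 226.6 CPM in mock and 324.6, 298.5 and 311.5 in p140Cap libraries. It rose in every p140Cap library (0.48 ± 0.05, adjusted p = 1.31e-07, edgeR). Npc1, the membrane partner, went from 35.6 ± 2.24 to 45.0 ± 1.22 CPM (0.33 ± 0.06, adjusted p = 0.000101, edgeR).

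Stard4 carries sterol between membranes and fell slightly, from 150.2 ± 6.36 to 136.9 ± 2.68 CPM (-0.13 ± 0.05, adjusted p = 0.0201, edgeR). Without mock 2 the value was -0.105 and the call was lost (adjusted p = 0.0875, edgeR). Soat1 had 3, 1 and 0 reads in mock and 0, 0 and 1 in p140Cap libraries, too few for a difference to be detectable at this depth.

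The 2 oxysterol receptors went opposite ways. Nr1h2, the widely expressed form, was at 94.8, 89.0 and 103.1 CPM in mock and 120.6, 141.0 and 124.7 in p140Cap libraries. Every p140Cap library was higher (0.43 ± 0.06, adjusted p = 1.34e-05, edgeR). Nr1h3 was scarce, with 149, 62 and 69 reads in mock and 18, 15 and 4 in p140Cap libraries, or 1.95, 1.56 and 2.07 CPM against 1.19, 1.02 and 0.29. The groups did not overlap, and the log2 fold change was -1.13 ± 0.29 (adjusted p = 0.00246, edgeR). Leaving out 1 library moved it between -1.47 and -0.76. The pooled reads gave a ratio of mock to p140Cap of 2.20 with a 95% exact interval of 1.56 to 3.19, which covers counting error only.

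A further 46 genes of the surrounding pathway (acetyl-CoA supply, sterol reductases and their partners, SREBP processing and sterol-regulated degradation, receptors and transport, oxysterol and ester metabolism, and the prenyl branch) were examined, of which 42 were tested. Of these, 13 rose, 21 fell and 8 did not pass, beside 35.2% of all tested genes called higher and 35.9% lower, with a median of -0.12 on the log2 scale, and 37 had no overlap between groups, beside 73.4% of all tested genes. A log2 fall of at least 0.5 passed in 7 of the 42, beside 15.5% of all tested genes. Their summed level was 4288 ± 41.0 CPM in mock and 4384 ± 88.5 in p140Cap libraries (SD, n = 3). By group, 3 of 4 genes of acetyl-CoA supply rose and 1 fell, and 3 of 4 sterol reductases and partners fell and 1 rose. In SREBP processing and degradation 5 of 8 fell and 2 rose, and among receptors and transporters 6 of 10 rose and 2 fell. Both tested genes of oxysterol and ester metabolism fell, of 6 listed, and in the prenyl branch 8 of 14 fell and 1 rose. Soat2, Ch25h, Cyp27a1 and Cyp7b1 were too low to test.

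Lrp8, a receptor of the lipoprotein receptor family, changed most. It was at 26.4, 28.7 and 25.3 CPM in mock and 8.04, 8.92 and 9.40 in p140Cap libraries. Every p140Cap library lay below every mock library, and Lrp8 fell by 67.3% (log2 -1.61 ± 0.09, adjusted p = 7.81e-11, edgeR). Pdss1, a subunit of the enzyme that builds the prenyl tail of coenzyme Q, was at 19.3, 19.7 and 18.8 CPM in mock and 8.31, 5.79 and 6.98 in p140Cap libraries (log2 -1.45 ± 0.10). Lbr, a sterol reductase of the nuclear envelope that shares its step with Tm7sf2, went from 154.4 ± 4.74 to 92.8 ± 4.63 CPM (log2 -0.74). Nceh1, a cholesteryl ester hydrolase, went from 17.98 ± 0.71 to 9.77 ± 0.61 CPM (log2 -0.88).

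Erlin1, which takes part in the degradation of sterol-regulated proteins, went from 61.3 ± 3.86 to 30.9 ± 1.71 CPM (log2 -0.99, adjusted p = 7.33e-10, edgeR). Erlin1 also lies on chromosome 19, as do 5 more of the tested genes of this list, and of these 6 genes 4 fell and 2 rose. Sult2b1, a sterol sulfotransferase, had 26 to 48 reads in mock and 3 to 7 in p140Cap libraries, and its log2 fold change of -1.06 had an SE of 0.38 (adjusted p = 0.0191, edgeR). Among genes that rose, named after their values were seen, Slc25a1, the mitochondrial citrate carrier, went from 90.2 ± 6.14 to 136.2 ± 6.59 CPM (log2 0.595, adjusted p = 7.54e-08, edgeR). Srebf1, whose products mainly drive fatty acid synthesis, went from 629.1 ± 48.5 to 764.9 ± 64.8 CPM (log2 0.28, adjusted p = 0.000929, edgeR).

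**Figure D4:**
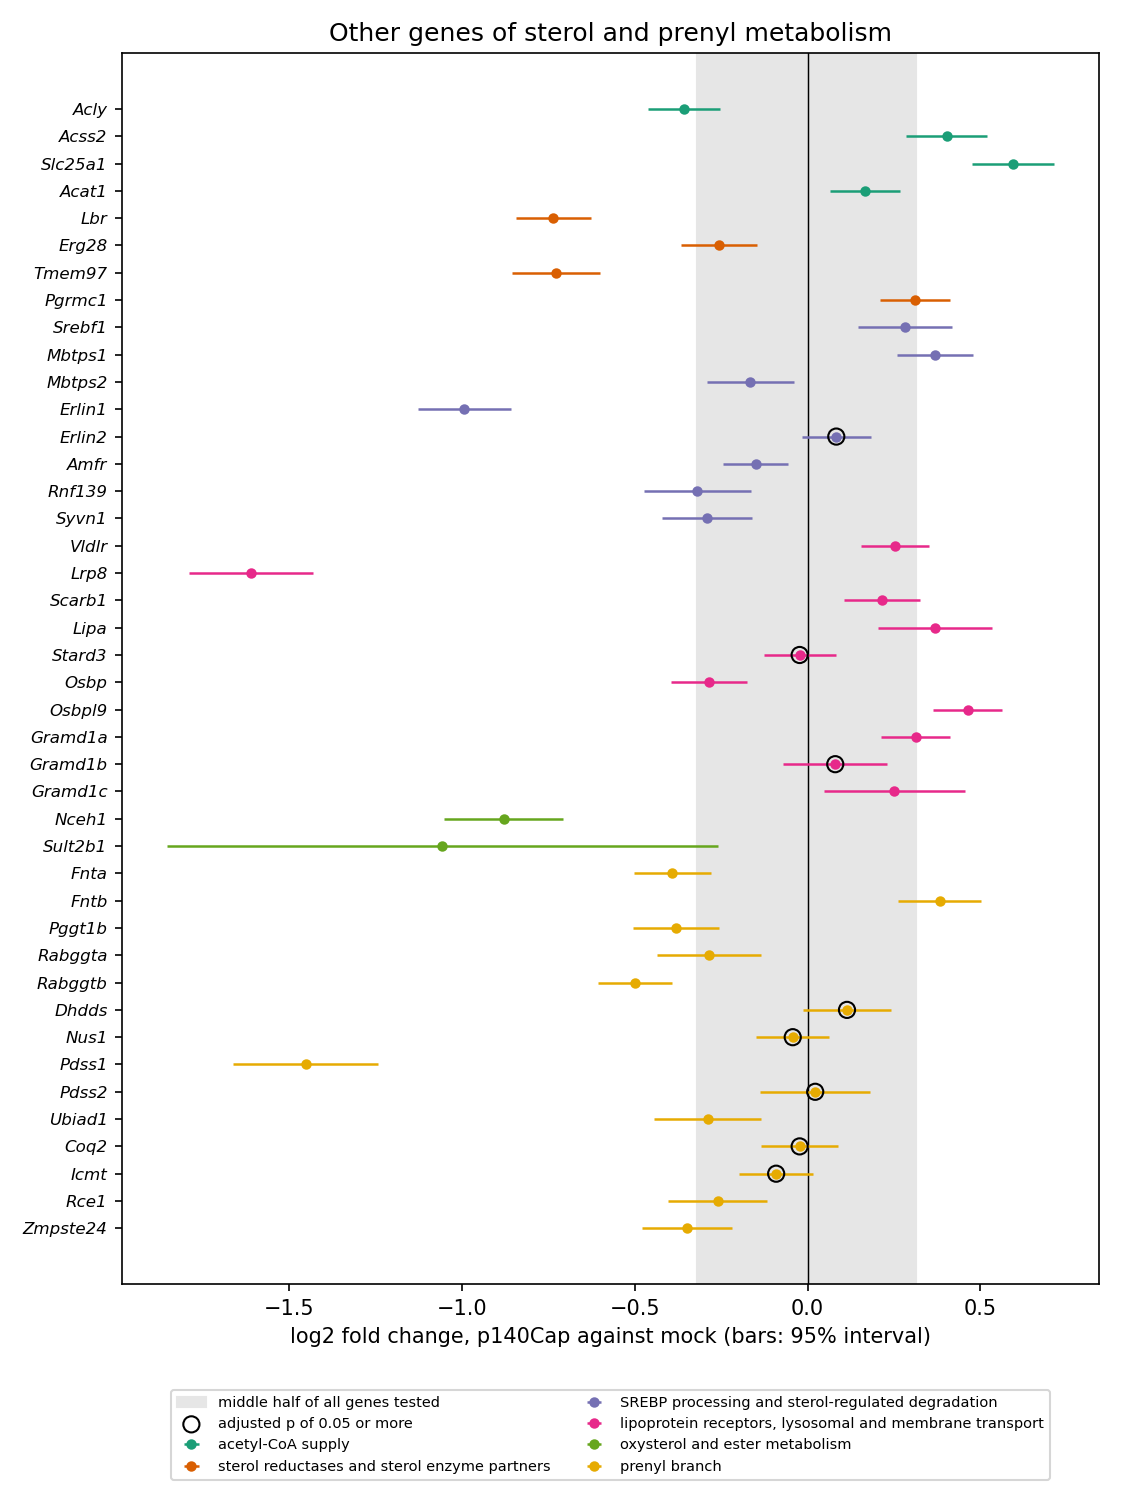
Log2 fold change (p140Cap minus mock) with its 95% interval for the 42 tested genes of the surrounding pathway, beside a grey band of the quartiles of all tested genes (-0.32 to 0.31). Values run from Lrp8 at -1.61 to Slc25a1 at 0.595, on both sides of 0.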

How the data were processed

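TuBo RNA-Seq libraries, 3 mock and 3 p140Cap, were compared. By the paper's methods they were stranded and sequenced on a NextSeq 500, and the labels give poly(A) selection. The authors deposited counts, whole numbers of reads per gene for each library, without normalization. The submitters' processing notes name STAR 2.5, RSEM and mm10 without saying what each did, while the paper names another build, so the counts may be RSEM estimates rounded to whole numbers.

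Counts were tested in R 4.3.3 with edgeR 4.0.16 (TMM factors, filterByExpr, quasi-likelihood test, condition as the sole term) on 11800 genes, calling those with a Benjamini-Hochberg adjusted p under 0.05. CPM used TMM-adjusted library sizes. SE was taken as the size of the log2 fold change over the root of F. Exon lengths, overlaps and near copies came from GENCODE annotation by Ensembl identifier, and promoters and their coordinates from RefSeq. The scripts were tested on simulated counts. The common coefficient of biological variation was 4.57%. No library was a copy of another (mean chi-square 1.75 to 10.7 within groups).

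All 30 genes are named. Of the surrounding pathway, called genes with an absolute log2 fold change of at least 1 are named, filled up to 6 by size. The genes and lists were chosen with earlier results of these data known. Alternatives were DESeq2 1.42.0, limma-voom (limma 3.58.1), 2 other scalings, 2 other filters, thinning, a replicate block and leaving out each library. Protein sequences were not analysed here.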

Additional observations from a re-analysis of the deposited data

How the results depend on the processing

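Across 14 other settings, 398 of 405 fold changes of the tested genes kept their direction and their side of the threshold, 4 lost the call, 3 gained it and 0 reversed. Nr1h3 had no value with at least 10 reads required in every library, which removes it from the test and leaves 20 of the 30 genes called lower there. Pmvk lost it with libraries thinned to the smallest total (-0.12), without mock 1 (-0.13) and without p140Cap 2 (-0.12), and Stard4 without mock 2 (-0.11). Scap gained it with no filter (-0.15), without mock 2 (-0.17) and without p140Cap 2 (-0.15). With no filter on low counts the median of the enzymes was -0.585 against -0.554. The median of the 15860 genes tested there was -0.06, against -0.002 for the 11800 genes tested with the filter. Genes that rose and genes that fell moved alike, such as Insig2 from 0.693 to 0.663 and Acat2 from -0.614 to -0.645. The cause was not tested. Leaving out 1 library gave enzyme medians of -0.569 to -0.536. Counts of calls stayed within 1.5 times of those given in every setting. With replicate number as a block, 5 genes rose and 21 fell, 18 of them enzymes, as without it. Same-numbered libraries did not deviate together (correlations -0.03, -0.11 and -0.06). Such values cannot show whether libraries of the same number were prepared together. Depth limits Soat1, Nr1h3 and Sult2b1, and p140Cap libraries had the fewest reads.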

Other observations

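The 5 pairs of related genes below were chosen after their values were seen, because their members differed. Other relatives moved the same way, such as Rabggta (log2 -0.285) and Rabggtb (log2 -0.50), the catalytic subunits of the enzyme that prenylates Rab proteins, which both fell (adjusted p = 0.00185 and 1.76e-07, edgeR). Fnta and Fntb encode the subunits of protein farnesyltransferase. Fnta went from 68.7 ± 0.98 to 52.3 ± 2.55 CPM (SD, n = 3; log2 -0.39 ± 0.05 SE, adjusted p = 4.56e-06, edgeR) and Fntb from 41.4 ± 1.55 to 53.9 ± 2.97 CPM (log2 0.38 ± 0.06, adjusted p = 1.34e-05, edgeR). The log2 ratio of Fntb to Fnta was -0.73 ± 0.04 in mock and 0.04 ± 0.10 in p140Cap libraries. Mbtps1 and Mbtps2 encode the proteases that cut SREBP in turn, and Mbtps1 rose (log2 0.37, adjusted p = 8.05e-06, edgeR) while Mbtps2 fell (log2 -0.17, adjusted p = 0.02, edgeR).

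Among lipoprotein receptors, Vldlr went from 445.6 ± 14.5 to 531.1 ± 10.2 CPM (log2 0.25, adjusted p = 0.00013, edgeR) as Lrp8 fell, and their log2 ratio differed by 1.86 between groups. Erlin2 had a log2 fold change of 0.08 (95% interval -0.02 to 0.18, adjusted p = 0.126, edgeR) beside the fall of Erlin1, and Pdss2 one of 0.02 (95% interval -0.14 to 0.18, adjusted p = 0.803, edgeR) beside that of Pdss1. Since the pairs were picked for these differences, their ratios are given as a description. An exact permutation test over the libraries gave p = 0.1 for each ratio, the smallest value possible with 3 per group. For pairs picked this way it decides nothing.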
